A study of Homo sapiens with 8 samples.

Results

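The major histone gene cluster of human chromosome 6 was examined for RNA recovered with RBPMS in HUES6 cells. Its members are the peaks that overlap chr6:26010000-27880000 (build hg19) on either strand, a segment of 1.87 Mb, and they were chosen by position alone. They numbered 107 of 194003 listed peaks, namely 4, 86, 6 and 11 in eCLIP libraries 1, 2, 3 and 4.

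HUES6 is an established human embryonic stem cell line, here wild type, labelled as control and grown in FTDA medium. Dishes of about 20M cells were crosslinked with UV light at 400 mJ/cm2. The 4 eCLIP libraries hold RNA recovered with an antibody specific for RBPMS, and the 4 input libraries hold RNA of the same kind of lysate with no antibody. All share genotype, line and treatment, so the only comparison is immunoprecipitation (IP) over input, held in each eCLIP list as the authors' log2 fold and −log10 p per peak.

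Histone genes of this cluster are mostly replication-dependent: they have no introns, are transcribed in S phase, and their mRNAs end in a conserved stem-loop, held by the stem-loop binding protein, in place of a poly(A) tail. They encode the linker histone H1 and the core histones H2A, H2B, H3 and H4, many as near-identical copies, and H2A and H2B genes often stand head to head with a shared promoter. RBPMS is an RNA-binding protein with 1 RNA recognition motif that binds CAC-containing RNA and is known as a splicing regulator of smooth muscle. The RefSeq gene table of GRCh38.p14, used for names and neighbours only, gives 55 protein-coding histone genes of the cluster on chromosome 6: 6 of H1, 12 of H2A, 15 of H2B, 10 of H3 and 12 of H4. With strand known for 50 of them, 15 neighbouring pairs stand head to head, and 9 of these join an H2A gene with an H2B gene (for example H2BC11 with H2AC11, and H2AC17 with H2BC17). In the table's order they form 5 runs of 2, 9, 23, 5 and 16 genes. Other protein-coding genes stand between the runs, 4, 1, 9 and 5 in turn, with the butyrophilin genes BTN3A2 and BTN2A1 among the 9 and the protease gene PRSS16 among the last 5. The peak lists name no gene, and hg19 positions were not set against GRCh38 positions, so no peak below is assigned to a gene. Whether all 55 genes, their runs and their pairs lie within the segment was not checked either.

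No peak of the histone cluster was enriched. An enriched peak was one at least 8-fold over input (log2 of at least 3) with a deposited −log10 p of at least 3. Enriched cluster peaks numbered 0 of 4, 0 of 86, 0 of 6 and 0 of 11 in libraries 1, 2, 3 and 4, against 15.9%, 5.38%, 12.6% and 12.7% of all listed peaks of libraries 1 to 4. A count of 0 allows a share of up to 3.49% in library 2 by 3 counts of the total, and up to 4.20% by the upper end of the exact 95% binomial interval. The other lists are too short to bound the share closely, with upper ends of 60.2%, 45.9% and 28.5% for libraries 1, 3 and 4. These limits cover counting error only. Over samples, libraries 3 and 4 count as 1 because their reads differed by less than the sampling noise. The enriched share was then 0% in the cluster and 11.3% ± 5.40 in the rest (SD, n = 3). As every cluster share was 0, the difference and its spread are those of the rest alone. The counts of 0 also fixed the p of the exact two-sided sign-flip permutation test at 0.25, the smallest that 3 samples allow.

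Depth bounds this statement. With 1 input read, an enriched peak needs at least 7, 13, 8 and 10 IP reads in libraries 1, 2, 3 and 4. The highest IP read number of any cluster peak was 5 in library 1, 4 in library 3 and 4 in library 4. These are the reads fixed by the deposited p, or else the smallest read pair that gives the deposited ratio. No cluster peak of these libraries thus had reads enough at these numbers, against 23.2%, 17.7% and 18.5% of the other peaks of libraries 1, 3 and 4. In library 2 the highest number was 31, and 9 of 86 cluster peaks (10.5%) had at least 13 IP reads, against 12.9% of the other peaks.

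**Figure D1:**
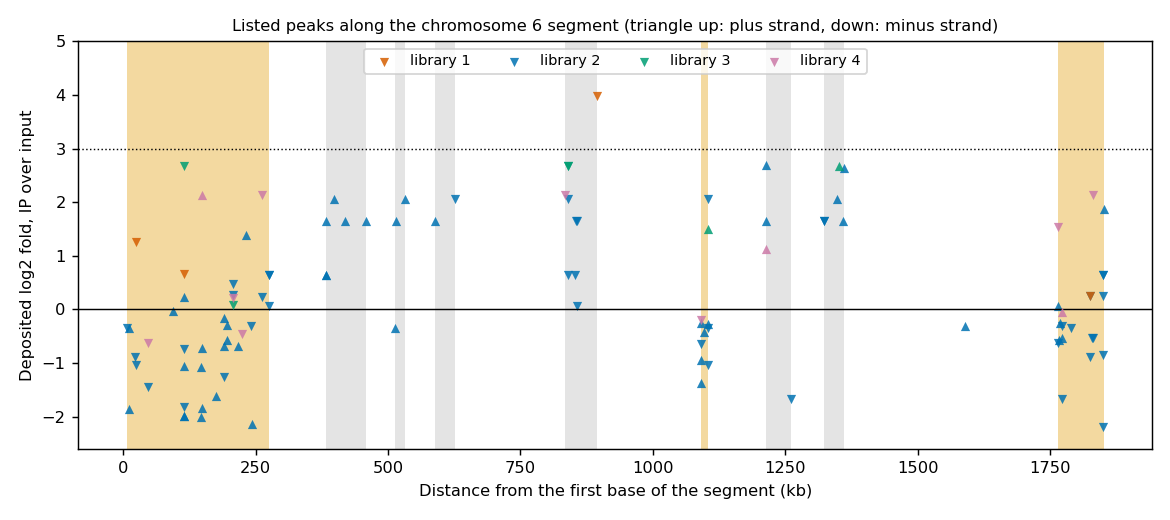
Listed peaks of the 4 eCLIP libraries along the segment, with the distance from its first base in kb on the x axis and the deposited log2 fold of IP over input on the y axis; colours give the library, triangles the strand, the solid line equality with input and the dotted line the log2 of 3 asked of an enriched peak. Orange bands are the 3 stretches that hold head-to-head peak pairs and grey bands the other stretches; 1 peak of library 1 lies above the dotted line, but its −log10 p of 2.42 was below the threshold.

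IP stood below input at 52 of the 107 cluster peaks, 48 of them in library 2 and 4 in library 4. In library 2, 48 of 86 cluster peaks (55.8%) had a log2 fold below 0, against 15.6% of the other peaks. Their log2 fold ranged from -2.19 to 2.69 with a median of -0.28, or 0.823 times input, where the other peaks of library 2 had a median of 1.06, or 2.09 times input. Library 4 had 4 of 11 cluster peaks below 0 (36.4%, against 7.40% of the other peaks), with a log2 median of 1.13 in the cluster and 2.13 in the rest. In library 1, 0 of 4 cluster peaks lay below 0, and their log2 median was 0.96, against 3.25 in the rest. Library 3 had 0 of 6 below 0, and its log2 median was 2.67 both in the cluster and in the rest.

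The median log2 fold was thus lower in the cluster in 3 of 4 libraries and equal in library 3. Over samples the cluster median was 0.86 ± 1.09 and the median of the rest 2.24 ± 1.10, a difference of -1.38 ± 0.90 (SD, n = 3; exact sign-flip permutation test, two-sided, p = 0.25, the smallest possible). The share of peaks above 0 was 75.3% ± 28.5 in the cluster and 91.9% ± 6.64 in the rest. It was lower in the cluster in libraries 2 and 4 and higher in libraries 1 and 3, so the difference of -16.6 ± 21.9 points (SD, n = 3) was smaller than its spread (exact sign-flip permutation p = 0.50). Against the rest of chromosome 6 alone, with 4871 peaks in library 2, the difference of medians was -1.45.

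**Figure D2:**
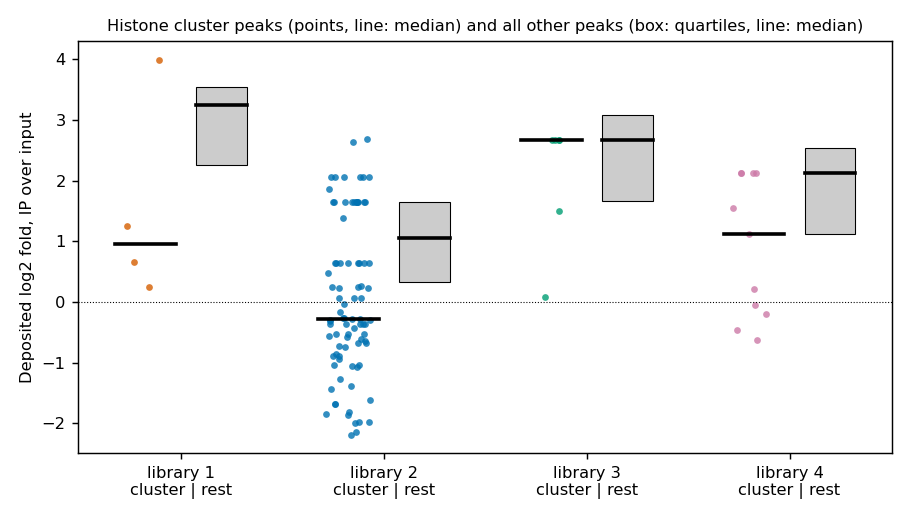
Deposited log2 fold of IP over input (y axis) by library (x axis); each point is 1 cluster peak, with the cluster median as a line, and the grey box spans the quartiles of all other listed peaks with their median as a line. In library 2 the cluster median of -0.28 lies below the box of the other peaks, in libraries 1 and 4 it lies at or below the box's lower end, and in library 3 the medians are equal.

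The low ratios of library 2 went along with more input reads per peak. In that library the cluster peaks rested on a median of 4 IP reads and 5.5 input reads, and the other peaks on a median of 4 IP reads and 2 input reads. The deposited p fixed the reads of 35 of the 86 cluster peaks. The remaining cluster reads are lower bounds, which also enter the 10-read minimum below. Input reads are the divisor of the ratio, so they are not independent of it. Among peaks with at least 10 reads in IP and input together, the 44 of library 2 in the cluster had a log2 median of -0.68, against 1.25 for the rest of that library. A single cluster peak reached 10 reads in library 1 and in library 4, and 0 did in library 3. Higher input was not particular to library 2. In library 1 the medians were 3 IP and 5 input reads in the cluster, against 4 and 2 in the rest. Library 4 had 3 and 2 in the cluster, against 4 and 1 in the rest, and library 3 had 3 and 1 in both.

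The deposited p is 0 on the −log10 scale wherever log2 is below 0, so loss against input was tested here (exact binomial test against the depth ratio, Benjamini-Hochberg adjusted over all listed peaks of a library). The test took the reads fixed by the deposited p, or else the smallest read pair of the peak. Peaks below 0 were thus tested at lower bounds of their reads. This compares 1 IP library with its input and not conditions. In library 2, 5 of 86 cluster peaks (5.81%) were below input at an adjusted p under 0.05, and 0.615% of all listed peaks of that library were. Peaks of few reads cannot be called, and these shares are not at equal read number. In library 2, 51.2% of the cluster peaks had at least 10 reads in IP and input together, against 29.0% of the other peaks. In libraries 1, 3 and 4, 0 of 4, 0 of 6 and 0 of 11 were, where 0.819%, 0.825% and 0.739% of all listed peaks were. At an unadjusted p under 0.05, 11 of 86 cluster peaks of library 2 were below input, against 1.14% of its other peaks, and 0 in libraries 1, 3 and 4, where 0.885%, 1.03% and 0.986% of the other peaks were. These p-values cover counting error only. Between libraries, all pairs except 3 and 4 differed by more than counting error (chi-square per degree of freedom of 3.53 to 5.89), and all cluster calls below input come from library 2 alone.

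The 5 peaks lay at 4 places, since 2 of them touch and may share reads. At chr6:26124484-26124580 and chr6:26124581-26124672, plus strand, both peaks had a ratio of 8 IP reads to 33 input reads, a log2 fold of -1.98 (exact binomial test, adjusted p = 0.00195). At chr6:26156611-26156663, plus strand, 6 IP reads stood against 25 input reads (exact binomial test, adjusted p = 0.0119). At chr6:26252159-26252182, plus strand, there were 5 IP reads and 23 input reads, a log2 fold of -2.14 (exact binomial test, adjusted p = 0.0123). At chr6:27860793-27860837, minus strand, 4 IP reads and 19 input reads gave the lowest log2 fold of the cluster, -2.19 (exact binomial test, adjusted p = 0.0304). After scaling for depth, IP was lower than input by 3.95 to 4.55 times at these peaks.

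**Figure D3:**
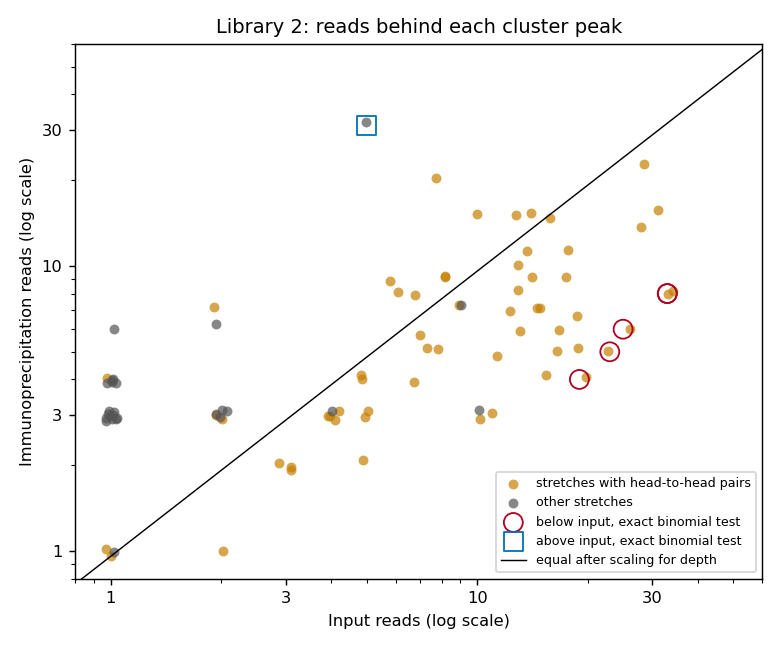
Reads behind each of the 86 cluster peaks of library 2, with input reads on the x axis and IP reads on the y axis (both log scales, points shifted slightly so that they do not cover each other); where the deposited p does not fix the reads, the smallest pair with the deposited ratio is shown. Peaks of the stretches with head-to-head pairs reach 33 input reads and lie mostly below the line of equality, while most peaks of the other stretches sit at 1 or 2 input reads.

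By the same test 2 cluster peaks were above input, 1 in library 1 (36.3% of all its listed peaks were) and 1 in library 2 (9.03% of all its listed peaks were). Most peaks above 0 had fixed reads and peaks below 0 only lower bounds, so calls above and below input are not of equal power. The peak of library 2, chr6:27223995-27224156, plus strand, had 31 IP reads over 5 input reads, a log2 fold of 2.69 or 6.47-fold, with a deposited −log10 p of 4.76 (exact binomial test, adjusted p = 0.000105). It was the only cluster peak with a −log10 p of at least 3, and it missed the log2 threshold. Library 4 listed the same place, chr6:27224086-27224122, at a log2 fold of 1.13 from 3 IP reads over 2 input reads, with a −log10 p of 0.395. Libraries 1 and 3 listed no peak there. The peak of library 1, chr6:26904624-26904694, minus strand, had 5 IP reads over 1 input read, a log2 fold of 3.99 and a deposited −log10 p of 2.42 (exact binomial test, adjusted p = 0.0146), and no other library listed it. Both were singled out after their values were seen.

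The peaks formed 10 stretches when peaks at most 50 kb apart, of any library and strand, were joined. Of these, 3 held peaks of both strands in close head-to-head order and are described together: chr6:26017339-26285753 with 42 peaks, chr6:27100178-27115088 with 11 and chr6:27775336-27861351 with 22. The other 7 stretches lay between them and held 32 peaks. In library 2 the 3 stretches had 60 peaks in 369 kb, 1.62 peaks per 10 kb, and the 7 others had 26 in 279 kb, 0.932 per 10 kb. The grouping was made after the data were seen, from position and strand and not from log2 folds, and it was not tested. It asks for library 2 peaks close together, and the peaks themselves set the stretch lengths, so the density is not independent of the grouping.

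In the 3 head-to-head stretches 45 of 60 library 2 peaks (75.0%) were below 0, with a log2 median of -0.52, quartiles of -1.04 and -0.01 and a highest value of 2.06. In the other 7 stretches 3 of 26 (11.5%) were below 0, with a log2 median of 1.65 and quartiles of 0.65 and 1.96. Input depth went along with this: the median was 9.5 input reads in the 3 stretches and 1 in the others, and the median IP reads were 6 and 3. These reads are again lower bounds where the deposited p does not fix them. Of the 26 peaks in the other stretches 17 rested on 1 input read, where the fold depends on how an input of 0 was treated. Whether input depth accounts for the difference was not tested. All 5 peaks below input lay in the 3 stretches, 4 in the first and 1 in the last, and the peak of library 2 above input lay in 1 of the others. Libraries 1, 3 and 4 together had 15 peaks in the 3 stretches, 4 of them below 0, with log2 folds from -0.63 to 2.67. They had 6 in the other stretches, 0 below 0, from 1.13 to 3.99.

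Neighbouring peaks on opposite strands stood head to head. Among the 34 pairs of neighbouring peaks of library 2 at most 1 kb apart, 7 (20.6%) had a minus-strand peak on the left and a plus-strand peak on the right, and 0 had the reverse order. Among 54683 pairs of such neighbours outside the cluster, 0.501% were head to head and 0.499% tail to tail, and on the rest of chromosome 6 the head-to-head share was 0.336%. The gap within the 7 head-to-head pairs was 401 to 641 bases, with a median of 464. Both peaks were below input in log2 fold in 5 of the 7 pairs, and 11 of the 14 peaks were, with a median of -0.57. This was near the level of the stretches that hold them, where 45 of all 60 library 2 peaks (75.0%) were below 0, with a median of -0.52. The pair with the widest gap, chr6:27100178-27100254 and chr6:27100896-27101007, had log2 folds of -0.64 and -0.94. The remaining pairs lay within the first and last stretches, apart from chr6:27114444-27114491 with chr6:27114992-27115088 at -0.35 and -0.27. The pair at chr6:27860872-27860924 and chr6:27861341-27861351 was the only one with both peaks above 0, at 0.25 and 1.87. Libraries 1, 3 and 4 had 0 head-to-head pairs among their 4, 6 and 11 peaks.

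**Figure D4:**
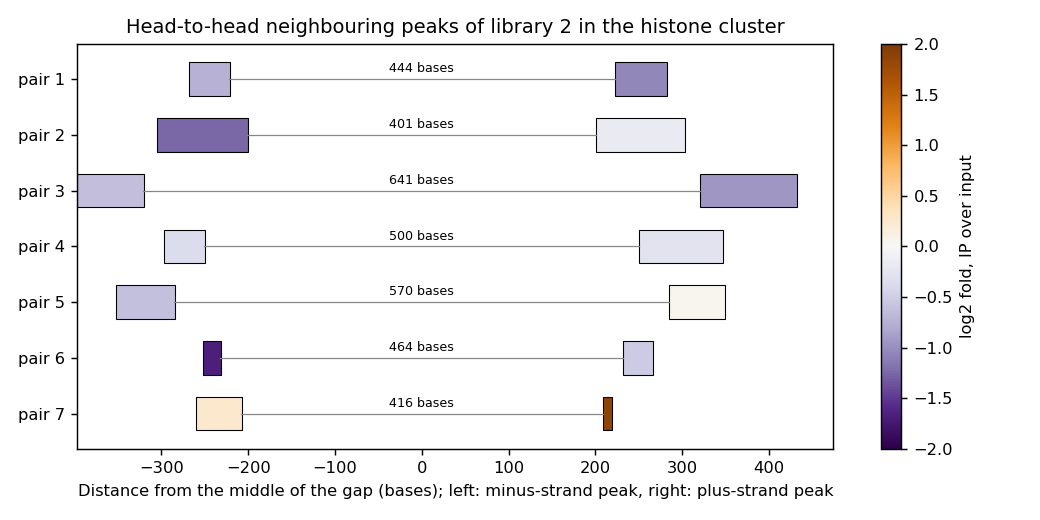
The 7 head-to-head pairs of neighbouring peaks of library 2, drawn to scale by distance in bases from the middle of the gap (x axis), with the minus-strand peak on the left and the plus-strand peak on the right; colour gives the deposited log2 fold of IP over input. The gaps span 401 to 641 bases, and 11 of the 14 peaks are below input, where 45 of all 60 library 2 peaks in the same stretches are.

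Strands were balanced in library 2, with 45 plus-strand and 41 minus-strand cluster peaks. The 21 peaks of libraries 1, 3 and 4 included 5 on the plus strand. Cluster peaks were about as wide as others, with a median of 54.5 bases in the cluster and 51 in the rest in library 2. At the edges of the segment, library 2 listed its first peak 7.34 kb inside the start, at a log2 fold of -0.35, and the nearest peak outside lay 390 kb away, at 3.38. At the other end its last peak lay 18.6 kb inside, at 1.87, and the nearest outside 210 kb away, at 1.38. The 3 widest regions, chr6:27107244-27107436, chr6:26204872-26205061 and chr6:26199963-26200137, all on the plus strand, were listed by library 2 only, at log2 folds of -0.42, -0.29 and -0.68.

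The libraries seldom listed the same place. Merging overlapping peaks of a strand gave 100 regions, of which 93 were listed by 1 library, 7 by a pair of libraries and 0 by more, so 7 of 100 were shared, against 13.0% of 154631 regions elsewhere. That share depends on how many peaks each library lists, and 86 of the 107 cluster peaks came from library 2. Cluster peaks in a region that library 2 also listed numbered 2 of 4, 1 of 6 and 3 of 11 in libraries 1, 3 and 4. Of the other peaks of these libraries 42.7%, 45.1% and 46.9% were in such a region, so library 1 was not lower in the cluster. With 0 enriched peaks, the cluster held none of the 7472 regions merged from enriched peaks in the whole series, of which 22.7% were enriched in at least 3 of 4 libraries, and its count of 0 adds nothing to the count of enriched peaks. At most 3 regions were shared by any pair of libraries, so no correlation is given. Of the 7 shared regions, 4 had log2 folds of 1 sign in both libraries and 3 had opposite signs. At chr6:26123765-26123859, minus strand, the log2 fold was 0.67 in library 1 and -1.81 in library 2. At chr6:27835239-27835319, minus strand, it was 0.25 in library 1 and -0.89 in library 2, and at chr6:27114992-27115088, plus strand, it was -0.27 in library 2 and 1.50 in library 3. Libraries 2 and 4 were both below 0 at chr6:27100178-27100254, minus strand, with -0.64 and -0.19, and both above 0 at chr6:26271299-26271363, minus strand, with 0.23 and 2.13. They were also both above 0 at the place on the plus strand given above, with 2.69 and 1.13. Libraries 3 and 4, counted as 1 sample, shared 1 region, chr6:26216766-26216838, minus strand, at 0.09 and 0.22.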

How the data were processed

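Each of the 4 eCLIP libraries has 1 peak list, made per library; coordinates are on hg19, per the submitters' processing notes; library preparation followed the published eCLIP procedure with paired reads of 75 nt, per the labels' protocols. The deposited log2 fold and the deposited −log10 p of IP against input are the authors' values. Not given in the sources used here are the aligner, the peak caller, how reads that fit several gene copies were placed, and which input served which list. No list exists for the inputs alone, and total reads per library are unknown. Separate cultures are stated nowhere, so p-values measure a spread between libraries that could be technical.

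Each log2 fold is that of a ratio of whole reads, shifted by 1 constant for the library. The constant gives an input depth over IP depth of 3.18, 1.04, 2.12 and 1.46 in libraries 1 to 4. The smallest whole pair was found for at least 99.98% of the peaks of each list. Where log2 was above 0 and the p below its ceiling, the pair was fixed by matching the p. The match used the exact binomial test against the depth ratio within 0.003 of its value, or chi-square with at least 5 reads on both sides within 0.0005. It was unique for 94.1% to 98.6% of these peaks. Elsewhere, below 0 included, the reads are lower bounds. Whether 1 input read stands for 0 is unknown. Over 315 peaks overlapping by at least 80%, with at least 40 IP reads together, the chi-square per degree of freedom was 0.958 for libraries 3 and 4 (p = 0.693) and 3.53 to 5.89 for the other pairs.

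The rule for named regions took those enriched in at least 3 libraries, those listed in all 4, the 3 widest and peaks enriched in 1 library; only the widest exist here, and other regions were chosen after their values were seen. Members and comparisons were chosen with earlier results of these data known. Starts are 1-based. Python 3.11.15, pandas 2.3.3, numpy 2.4.6, scipy 1.17.1 and matplotlib 3.10.9 were used, and the read recovery and the test of loss were tested on simulated data. No sequence is shown.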

Additional observations from a re-analysis of the deposited data

Results flagged for a closer look

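Of 12 quantities compared over the 4 libraries, 3 had 1 library far from the others by Dixon's criterion for 4 values. For continuous values chance would flag about 1 in 20. All 3 were library 2. It listed 86 cluster peaks, and the next longest list 11, so the gap made up 0.915 of the range. Its 5 cluster peaks below input, against 0 in each other library, and its median of 4 IP reads per cluster peak, against 3 in each other library, both gave a gap of 1, the whole range. With equal values in the other libraries any single odd value gives a gap of 1, so the rate of 1 in 20 does not apply to these flags. The number of peaks below input also depends on the number of cluster peaks, which was itself flagged. Library 2 also had the longest list over the whole genome, with 118375 peaks.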

How the results depend on the processing

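No paired analysis was possible because the input libraries have no lists, and their reads enter only through the ratios of the eCLIP lists, which already set each IP against an input. The tests of loss, the 10-read minimum, the stretches and the head-to-head pairs were chosen after seeing the data. The median log2 fold and the share above 0 kept their direction, cluster minus rest, under all alternatives run. The median stood at -2.85 to -0.92 and the share at -27.4 to -4.75 points. Some alternatives are weak checks. With a −log10 p of at least 3 asked of every peak, the median difference of -1.07 rested on 1 cluster peak of library 2. On the plus strand alone n was 2, as library 1 had 0 cluster peaks there. The enriched share stood at -14.3 to -7.84 points, but with 0 enriched cluster peaks its direction was fixed and says nothing on stability. Only the setting with a log2 of at least 1 could change the cluster's share of 0, and it gave -12.8 points. The share above 0 stood at -4.75 points without library 2 (exact sign-flip permutation p = 1), against -16.6 points with it. The median difference of -1.38 was -2.85 with at least 10 reads together, where libraries 1 and 4 had 1 cluster peak each. Reproducible regions numbered 0 under all 9 alternatives, which says nothing on stability, since 0 cluster peaks were enriched. Library 2 carries most counts: with each library left out, listed regions numbered 20 to 98, regions listed by a pair of libraries 1 to 5, peaks below input 0 to 5 and peaks with log2 below 0 between 4 and 52, each lowest value being without library 2. Without library 4, 3 regions were listed by a pair. Peaks below 0 numbered 30 with close peaks counted once, fewer by construction. Peaks below input numbered 4 with touching peaks counted once and 7 with at least 10 reads together. Head-to-head pairs numbered 5 within 500 bases and 8 within 2 kb. Depth limits the values from libraries 1, 3 and 4, whose cluster peaks held at most 5 IP reads, at the smallest pair where the deposited p did not fix them.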
